A study of Rattus norvegicus with 18 samples.

Results

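The genes described here encode 10 proteins of the contractile and actin machinery by which smooth muscle cells and myofibroblasts are commonly recognised: Acta2, Tagln, Cnn1, Myl9, Tpm1, Tpm2, Cald1, Actn1, Diaph1 and Diaph3. They were taken by symbol from a table of raw read counts for 33898 genes. Each symbol was found, and all 10 genes were among the 14184 that passed a filter on low counts. The RNA came from cells of the nucleus pulposus, the soft centre of an intervertebral disc, taken from Sprague Dawley rats aged 8 weeks and cultured in medium with serum. The treated cells were kept for 24 hours with Braco-19, Phen-DC3 or PDS. All are ligands of the G-quadruplex, a fold that guanine-rich DNA or RNA can form and that such ligands make more stable. There were 18 libraries in 6 groups of 3: PDS and PDS control, Phen-DC3 and Phen-DC3 control, Braco-19, and a control group whose titles name no compound. The unnamed controls were set against Braco-19 by elimination. The labels give no dose, no vehicle and no link from libraries to animals or cultures, so p-values measure differences against the spread between these libraries, which may be technical.

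As background, contractile cells build stress fibres from actin filaments, cross-link them with alpha-actinin and line them with tropomyosins, while calponin, caldesmon and transgelin bind along the filaments. Formins of the Diaphanous family nucleate and lengthen the filaments. When filaments grow, the pool of free actin shrinks and releases the coactivator MRTF, which with serum response factor (SRF) drives many contractile genes through a promoter element named the CArG box. Cells of the disc and of many other connective tissues take up parts of this programme when they are cultured on plastic.

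Library totals ran from 15715121 to 18369443 counts, and the 10 genes together held 0.292% to 0.441% of them. Levels are given below as CPM, read counts brought to a common library size and scaled by TMM, a method that corrects library size for composition. A log2 fold change is called when its p-value from edgeR's two-sided quasi-likelihood test, adjusted by the Benjamini-Hochberg method over the 14184 genes, is below 0.05, and it is printed with its standard error. Some libraries stood apart from their groups. As a multiple of counting error, the mean squared difference between replicates was highest among the Phen-DC3 controls (13.6 to 36.5), lay at 6.85 to 17.0 among Phen-DC3 libraries, and was 4.27 to 13.2 in the other 4 groups. The unnamed controls and the Braco-19 libraries also differed from the rest in composition: Fn1, the fibronectin gene, held 6.49% to 7.77% of their counts and 0.636% to 1.32% elsewhere, and genes longer than 5 kb held 23.3% to 25.4% against 7.42% to 10.7%.

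The label of the gene set was checked against markers of the cell types a culture could hold. Of 6 markers of mature smooth muscle, 5 read at most 23.0 CPM in any library. Myh11, the smooth muscle myosin heavy chain, was at 5.42 to 10.8 CPM, Lmod1 at 3.98 to 9.01, Des at 2.11 to 5.16, and Actg2 at 0.840 to 10.1. Myocd, the smooth muscle coactivator of SRF, was at 2.21 to 4.61 CPM in the PDS and Phen-DC3 libraries with their controls and at 14.5 to 23.0 in the unnamed control and Braco-19 libraries. Smtn was the exception at 190 to 363 CPM. Among 12 markers of the nucleus pulposus, Tbxt, Krt19 and Shh had no count in any library and Krt18 had at most 2 counts. Pax1 at 73.7 to 116 CPM and Foxf1 at 33.7 to 48.0 CPM were present. Col2a1 stood at 9.13 to 24.4 CPM, and Acan at 0.0586 to 3.44 CPM. Cd24 at 11.4 to 43.0 CPM, Sox9 at 4.94 to 20.8, Car3 at 8.62 to 19.1 and Krt8 at 6.24 to 16.9 were also present. The endothelial marker Cdh5 and the leukocyte markers Ptprc and Cd3e had no counts, and the pericyte marker Rgs5 had at most 1 count in a library. Other markers of these cells were present. The pericyte marker Pdgfrb was at 95.3 to 351 CPM, Abcc9 at 2.24 to 26.4, Cspg4 at 3.68 to 23.4 and Kcnj8 at 1.06 to 3.29. The leukocyte marker Cd68 was at 0.786 to 4.63 CPM, and Csf1r and the endothelial marker Tek reached 0.995 and 1.19 CPM.

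The promoter windows in RefSeq (GRCr8 build, 250 bases before to 50 after the start) were read for the 8 genes with an entry, 9 windows in all. Tagln and Myl9 had no entry, so neither motif below was searched in them. The CArG box is the element by which SRF is known to bind contractile genes, and it is shown in capitals for Acta2. With 1 of its 6 central bases free to be any base, read on both strands, Acta2 alone held a match, at 2 places, from -134 to -125 and from -84 to -75. In 33469 windows of the same length 9.42% held at least 1 such match and 0.846% at least 2. No window of the 8 genes held a strict match, where 1.64% of all windows did. The stretch lies at chr1:241172563-241172652 on the minus strand.

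Acta2: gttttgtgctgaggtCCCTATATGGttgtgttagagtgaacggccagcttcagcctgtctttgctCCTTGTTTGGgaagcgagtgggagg

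Because the compounds bind G-quadruplexes, runs of guanine were searched as well: 4 runs of GGG or longer, with 1 to 7 bases of any kind between them, on either strand. Of the 8 genes Actn1 held 1 match and Diaph1 held 2, and 16.6% of all windows held a match. The first Diaph1 match lies on the strand opposite to the gene and reads as runs of C here. Capitals mark the matches at chr6:104826373-104826422 for Actn1 and at chr18:30020356-30020444 for Diaph1, both on the minus strand. A match is a description of the letters and not a measured structure.

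Actn1: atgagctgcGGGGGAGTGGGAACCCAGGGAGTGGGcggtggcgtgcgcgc

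Diaph1: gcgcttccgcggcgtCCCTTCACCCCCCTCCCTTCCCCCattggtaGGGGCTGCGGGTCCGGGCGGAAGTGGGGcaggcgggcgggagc

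Levels of different genes were compared per kilobase of gene model. In PDS controls the order was headed by Tagln, the gene of transgelin (SM22), at 1039 ± 53.9 CPM per kb (SD, n = 3). Tpm2, beta-tropomyosin, followed at 321 ± 21.6 CPM per kb. Acta2, smooth muscle alpha-actin, stood at 204 ± 13.1 CPM per kb and Tpm1, alpha-tropomyosin, at 189 ± 9.12 CPM per kb. Next came Myl9, a regulatory myosin light chain, at 162 ± 8.07 and Cald1, caldesmon, at 131 ± 18.1 CPM per kb. Actn1, alpha-actinin 1, was at 78.8 ± 4.89 and Cnn1, calponin 1, at 29.2 ± 0.687 CPM per kb. The formins closed the order, with Diaph1 at 10.4 ± 0.733 and Diaph3 at 9.91 ± 1.23 CPM per kb, which did not differ beyond their spread.

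Tagln had the highest level per kilobase of the 10 genes in all 6 groups, but the places behind it were not the same everywhere. In the unnamed controls Tagln was at 344 ± 67.0 CPM per kb, and Actn1 at 230 ± 16.4 and Cald1 at 210 ± 10.6 CPM per kb came next. Tpm2 at 84.3 ± 22.8 and Acta2 at 82.7 ± 17.5 CPM per kb had fallen to the fifth and sixth places there and did not differ beyond their spread. Cnn1 was last in that group at 8.81 ± 1.81 CPM per kb. Among the actins, Acta2 was always far below the cytoplasmic genes: Actb was at 4431 ± 207 and Actg1 at 1229 ± 31.5 CPM per kb in PDS controls, while Actg2 was at 3.94 ± 0.874 and Acta1 at 1.33 ± 0.135. Actin genes are near-identical in their coding sequence, so how reads were divided between them is uncertain.

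**Figure D1:**
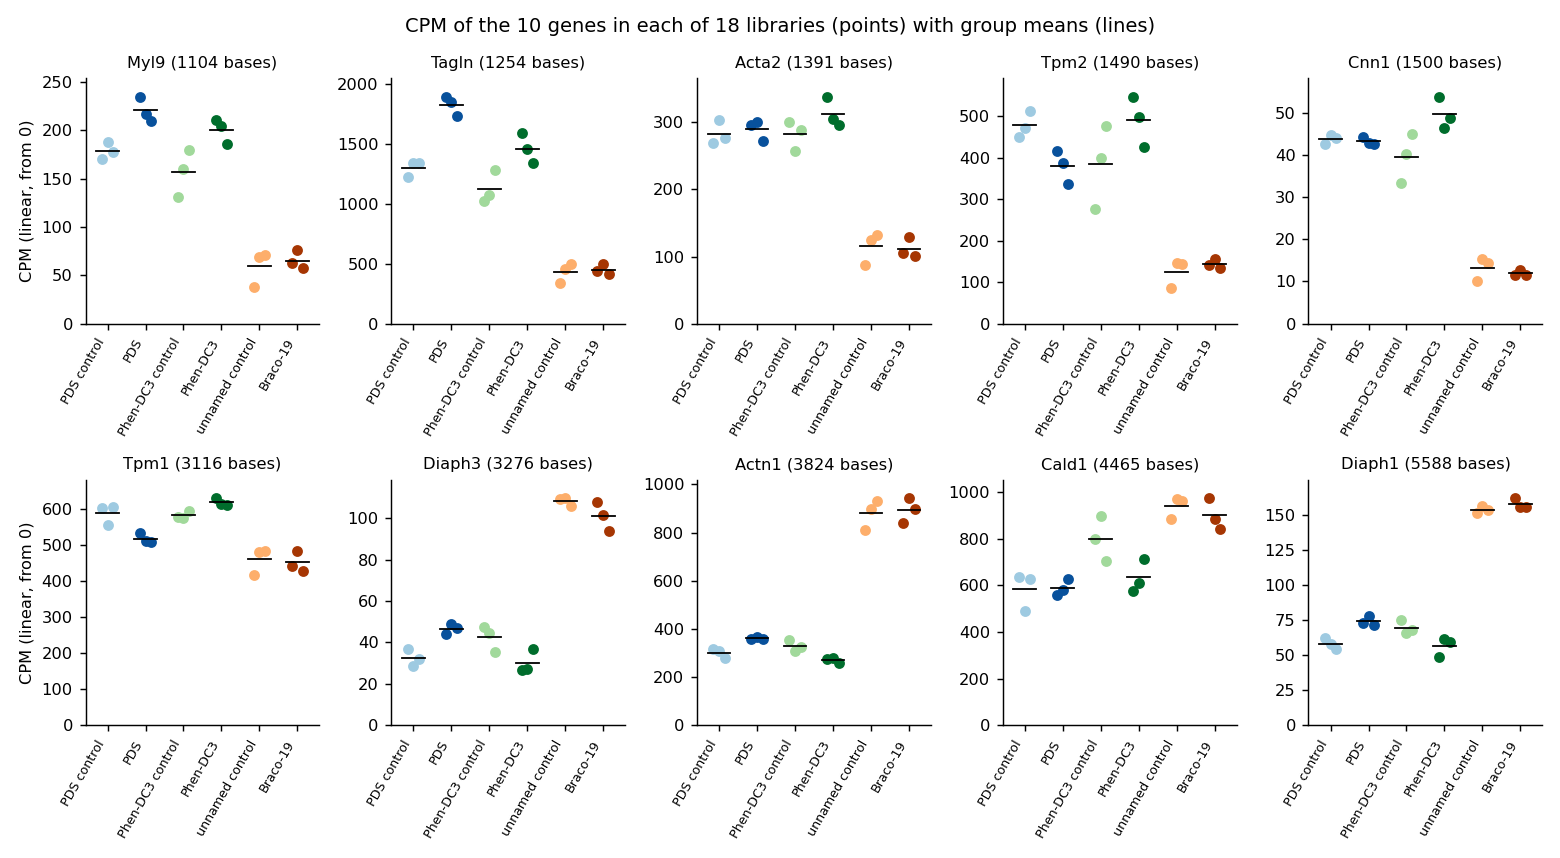
CPM (linear axis from 0) of the 10 genes in each of the 18 libraries, as points, with the mean of each group of 3 as a line; panels run from the shortest to the longest gene model. The first 5 genes and Tpm1 lie lowest in the unnamed control and Braco-19 libraries, and Diaph3, Actn1 and Diaph1 lie highest there.

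PDS raised 4 of the 10 genes and lowered none. Those higher were Tagln, the cross-linker Actn1 and both formins, Diaph1 and Diaph3, by 1.20-fold to 1.43-fold. The other genes were not called and did not move alike. Myl9 read higher, as Tagln did, at a log2 fold change of 0.30 without overlap of the groups. The log2 fold changes of Acta2 (0.03) and Cnn1 (-0.02) were near 0, and both tropomyosin genes had values below 0. Of all tested genes, 5.13% were called higher and 2.96% lower with PDS. The median log2 fold change of the 10 genes was 0.15, against 0.02 over all tested genes.

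Tagln (chromosome 8, 50222896 to 50231357, minus strand, positions here and below being those of the deposited table, with no stated build) read 1225, 1346 and 1338 CPM in the 3 PDS controls. With PDS it read 1897, 1849 and 1737 CPM. All treated libraries lay above all controls, and the log2 fold change was 0.49 ± 0.11 (edgeR adjusted p = 0.012). The gene model overlaps that of Sidt2 on the same strand, which held 2463 to 3717 counts in a library, so reads in the shared stretch cannot be assigned with certainty. Without PDS control replicate 1 the adjusted p of Tagln from edgeR was 0.053.

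Diaph3 (chromosome 15, 70039424 to 70399924, minus strand) encodes the formin mDia2. Its controls were at 36.8, 28.7 and 31.9 CPM and its PDS libraries at 43.9, 49.0 and 46.8 CPM. The groups did not overlap, and the log2 fold change of 0.52 ± 0.12 (edgeR adjusted p = 0.0096) had the largest size of the 10. Diaph1 (chromosome 18, 30972907 to 31071371, minus strand) encodes mDia1, a formin that builds the filaments of stress fibres. It was at 62.3, 57.9 and 54.1 CPM in controls and at 72.7, 78.1 and 71.8 CPM with PDS, again without overlap, a log2 fold change of 0.35 ± 0.08 (edgeR adjusted p = 0.011). The ratio of Diaph1 to Diaph3 in CPM was 1.70 to 2.01 in controls and 1.53 to 1.66 with PDS.

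Actn1 (chromosome 6, 103375799 to 103470555, minus strand) had control values of 315, 309 and 279.9 CPM. The PDS libraries read 359.5, 365 and 359.8 CPM, a narrow range above every control. The log2 fold change was 0.26 ± 0.07 (edgeR adjusted p = 0.025). This call was the least firm of the 4: it was lost in 9 of 13 alternative analyses, with adjusted p-values up to 0.12.

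The tropomyosins read lower. Tpm1 (chromosome 8, 72814740 to 72842228, minus strand) was at 604, 556 and 606 CPM in controls and 533, 511 and 508 CPM with PDS. Tpm2 (chromosome 5, 59016622 to 59025631, minus strand) was at 449, 472 and 513 CPM in controls and 415, 386 and 337 CPM with PDS. In both genes all 3 treated libraries lay below all 3 controls, yet neither was called: the log2 fold changes were -0.19 ± 0.07 (edgeR adjusted p = 0.088) and -0.33 ± 0.20 (edgeR adjusted p = 0.34). After a correction for gene length, described below, Tpm1 was called lower at -0.23 ± 0.07 (edgeR adjusted p = 0.036).

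The remaining genes were not called with PDS. Myl9 (chromosome 3, 152857592 to 152863960, plus strand) was at 171, 188 and 177 CPM in controls and 235, 217 and 210 CPM with PDS, a log2 fold change of 0.30 ± 0.18 (edgeR adjusted p = 0.33) with no overlap of the groups. Acta2 (chromosome 1, 252537615 to 252550394, minus strand) was at 269, 304 and 277 CPM against 296, 301 and 273 CPM, and the 95% interval of its log2 fold change ran from -0.22 to 0.29. Cnn1 (chromosome 8, 23113048 to 23121761, plus strand) was at 42.6, 44.7 and 43.9 CPM against 44.3, 42.7 and 42.6 CPM, with an interval from -0.25 to 0.22. Cald1 (chromosome 4, 62220736 to 62291489, plus strand) had a log2 fold change of 0.01 ± 0.10.

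Ratios of Tagln to Tpm2 and to Acta2 within a library restate the CPM values above and are no further evidence. No ratio to Myl9, which also read higher with PDS, was formed. The ratio of Tagln to Tpm2 in CPM was 2.61 to 2.85 in PDS controls and 4.57 to 5.15 with PDS, and that of Tagln to Acta2 was 4.43 to 4.83 against 6.15 to 6.41. With Phen-DC3 the ratio of Tagln to Tpm2 was 2.90 to 3.15, within the 2.68 to 3.70 of its controls, but that of Tagln to Acta2 was again higher without overlap, at 4.54 to 4.77 against 3.41 to 4.43. The ratio of Tagln to Tpm2 was 3.08 to 3.19 with Braco-19 and 3.15 to 3.89 in the unnamed controls. That of Tagln to Acta2 was 3.85 to 4.14 with Braco-19 and 3.67 to 3.86 in the unnamed controls, with a slight overlap.

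The count of PDS calls moved with the libraries used. Without PDS control replicate 2, PDS control replicate 3 or PDS replicate 2, 2 of the 10 genes were called in place of 4, and over all genes 659, 751 and 673 in place of 1148. In a fit on the libraries of this comparison alone 7 were called, 5 higher and 2 lower, the additions being Myl9, Tpm1 and Tpm2, and over all genes 2053 were called.

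**Figure D2:**
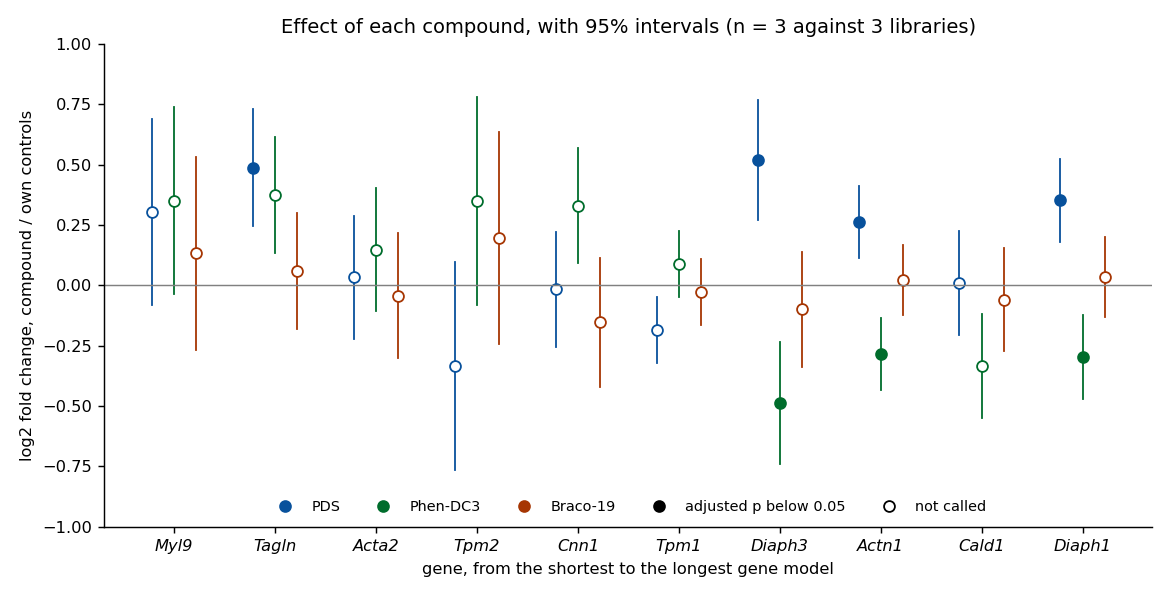
Log2 fold change of each gene with each compound against its own controls (points) with 95% intervals (lines), 3 libraries against 3; filled points passed an adjusted p of 0.05. PDS and Phen-DC3 points lie on opposite sides of 0 for Diaph3, Actn1 and Diaph1, and all Braco-19 intervals cross 0.

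With Phen-DC3, 3 of the 10 genes were lower and none was higher. They were Actn1, Diaph1 and Diaph3, which are 3 of the 4 genes that PDS raised, and they fell to between 0.713 and 0.821 of their control levels. The short contractile genes Tagln, Cnn1, Myl9 and Tpm2 had higher values that did not pass the test. Of all tested genes 2.19% were called higher and 5.82% lower. The median log2 fold change of the 10 genes was 0.12 against -0.01 over all tested genes.

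Actn1 was at 354, 309 and 325 CPM in the Phen-DC3 controls and at 274, 280 and 257 CPM with the compound, without overlap, a log2 fold change of -0.28 ± 0.07 (edgeR adjusted p = 0.024). Diaph1 was at 75.2, 65.5 and 67.8 CPM in controls and 48.6, 61.7 and 59.5 CPM with Phen-DC3, also without overlap, at -0.30 ± 0.08 (edgeR adjusted p = 0.037). Diaph3 had the largest change, -0.49 ± 0.12 (edgeR adjusted p = 0.023), but its groups overlapped: controls were at 47.6, 44.4 and 35.4 CPM and treated libraries at 26.9, 27.1 and 36.8 CPM.

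Tagln was at 1026, 1079 and 1279 CPM in controls and 1590, 1456 and 1342 CPM with Phen-DC3. Its treated libraries all lay above the controls, and the log2 fold change of 0.38 ± 0.11 stood at an edgeR adjusted p of 0.051. Cnn1 was at 33.4, 40.3 and 44.9 CPM against 46.5 to 53.8 CPM, at 0.33 ± 0.11 (edgeR adjusted p = 0.073), and Cald1 fell short of a call at -0.33 ± 0.10 (edgeR adjusted p = 0.05 after rounding, above the threshold). Tpm2 spread widely in its controls, at 277, 400 and 477 CPM, and its log2 fold change was 0.35 ± 0.20 (edgeR adjusted p = 0.27). Myl9 stood at 0.35 ± 0.18, Acta2 at 0.15 ± 0.12 and Tpm1 at 0.09 ± 0.07, none of them called.

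The Phen-DC3 changes of the 10 genes followed gene length. The 6 genes with gene models of 1104 to 3116 bases had positive values and the 4 of 3276 to 5588 bases had negative values, and over the 10 genes the Pearson correlation of the log2 fold change with log2 length was -0.889. This is a description over genes that share their libraries. The same direction ran through the whole table: the Spearman correlation with gene length over 14184 genes was -0.443, and the median log2 fold change went from 0.17 for gene models up to 1500 bases to -0.28 for those over 4500. When the smooth trend of each library with gene length was removed, none of the 10 genes was called with Phen-DC3. Diaph3 then stood at -0.40 ± 0.11 (edgeR adjusted p = 0.087), Actn1 at -0.15 ± 0.07 and Diaph1 at -0.04 ± 0.07, and 0.331% of all tested genes were called.

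Actn1 and Diaph1, whose promoter windows hold the guanine-run motif printed above, were called higher with PDS and lower with Phen-DC3 before the length correction. Diaph3 was called in the same directions there and has no match in its window. Tagln, also called higher with PDS, had no window to search. After the length correction Actn1 was called with neither compound, and Diaph1 and Diaph3 were called with PDS only. No pattern over 2 genes was tested.

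The 3 Phen-DC3 calls also rested on particular libraries. None of the 10 genes was called without Phen-DC3 control replicate 1 or 2 or without Phen-DC3 replicate 1 or 2, whereas leaving out control replicate 3 gave 6 calls and leaving out the treated replicate 3 gave 5. The whole table moved the same way: its 1136 calls became 3, 129, 0 and 22 in the first 4 cases and 3315 and 2653 in the last 2.

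Braco-19 gave no call among the 10 genes. Log2 fold changes ran from -0.15 (Cnn1) to 0.20 (Tpm2), none had an unadjusted p below 0.05 in edgeR, and DESeq2 also called 0. Of all tested genes 0.169% were called higher and 0.106% lower. Tagln was at 336, 460 and 497 CPM in the unnamed controls and 437, 494 and 416 CPM with Braco-19, and Acta2 at 87.3, 125 and 133 CPM against 105, 128 and 101 CPM. In all 10 genes the groups overlapped, which is given without the share over all tested genes. The 95% interval of the log2 fold change was from -0.13 to 0.20 for Diaph1, from -0.12 to 0.17 for Actn1 and from -0.18 to 0.30 for Tagln. The values that PDS gave for these 3 genes lay outside their Braco-19 intervals, which leave out the error of the PDS values. The direct edgeR test of the difference, described below, called none of these 3. Its adjusted p was 0.068 for Diaph1, 0.1 for Actn1 and 0.082 for Tagln. The interval of Tpm2 was wider, from -0.24 to 0.63.

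Differences between compounds were tested as interactions in the same model, over 3 pairs of compounds and with p-values adjusted over all genes within each pair. Doses are not in the labels, so the compounds cannot be set at matched doses. The effects of PDS and Phen-DC3 differed in 4 of the 10 genes, 3 with the larger value under PDS and 1 with the smaller, where 12.4% and 7.76% of all tested genes were called in these directions. The difference was 1.01 ± 0.17 on the log2 scale for Diaph3 (edgeR adjusted p = 0.0012), 0.65 ± 0.12 for Diaph1 (0.0018) and 0.55 ± 0.10 for Actn1 (0.002). Tpm1 differed the other way at -0.27 ± 0.09 (edgeR adjusted p = 0.043). These 4 were also called after the length correction, when 6.8% of all tested genes were called higher and 6.51% lower. Diaph3, Diaph1 and Actn1 were called in all 19 alternative analyses. The call of Tpm1 was lost in 10 of the 19, among them those without any of PDS control replicates 1 and 3, PDS replicates 1, 2 and 3, Phen-DC3 control replicates 1 and 2, and Phen-DC3 replicates 1 and 2. For Tagln no difference was called between PDS and Phen-DC3, at 0.11 ± 0.16 with a 95% interval from -0.23 to 0.45.

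PDS and Braco-19 differed in Diaph3 alone, by 0.62 ± 0.17 (edgeR adjusted p = 0.02), where 7.28% of all tested genes were called higher and 6.75% lower. Without PDS control replicate 2 or without Braco-19 replicate 3 this call was lost. For Tagln the difference was 0.43 ± 0.16 (edgeR adjusted p = 0.082). Between Phen-DC3 and Braco-19 no gene of the 10 was called by edgeR or by DESeq2. Over all tested genes 0.0141% were called higher and 0.0353% lower by edgeR. An unadjusted p below 0.05 in edgeR was reached by 4 of the 10, and the share of all genes at that looser threshold was not counted.

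The largest differences in these genes lay between control groups. Against the PDS controls, the unnamed controls had 6 genes lower and 4 higher, so that all 10 were called. Lower were Acta2, Tagln, Cnn1, Myl9, Tpm1 and Tpm2. Higher were Actn1, Cald1, Diaph1 and Diaph3. Calls were common in this comparison, at 37.7% of all tested genes higher and 35.6% lower, and the median log2 fold change of the 10 genes was -0.83 against 0.02 for all.

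Tpm2 had the largest fall, from 449 to 513 CPM in PDS controls to 86.5, 146 and 144 CPM in the unnamed controls, a log2 fold change of -1.93 ± 0.21 (edgeR adjusted p = 1.1e-06). Cnn1 was at 10.1, 15.2 and 14.3 CPM there (-1.72 ± 0.12), Tagln at -1.60 ± 0.12, Myl9 at -1.59 ± 0.19 and Acta2 at -1.30 ± 0.12, while Tpm1 fell by 0.35 ± 0.07. On the other side Diaph3 was at 109, 110 and 106 CPM (1.74 ± 0.12), Actn1 at 810, 898 and 932 CPM (1.55 ± 0.07), and Diaph1 at 152, 156 and 153 CPM (1.40 ± 0.08). Cald1 was higher by 0.68 ± 0.10 (edgeR adjusted p = 5.9e-06).

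The comparison with the Phen-DC3 controls shares the unnamed controls and gave 3 genes higher and 6 lower, against 34.9% and 34.6% of all tested genes. Actn1 stood at 1.42 ± 0.07, Diaph1 at 1.15 ± 0.08 and Diaph3 at 1.35 ± 0.12. Lower values ran from -1.62 ± 0.21 for Tpm2 to -0.34 ± 0.07 for Tpm1. Cald1, at 0.23 ± 0.10, was not called (edgeR adjusted p = 0.052). Between the Phen-DC3 and PDS controls only Cald1 was called, higher by 0.45 ± 0.10 in Phen-DC3 controls (edgeR adjusted p = 0.021), with 4.5% of all tested genes higher and 1.59% lower. Its controls read 637, 492 and 627 CPM for PDS and 798, 896 and 706 CPM for Phen-DC3. That call was lost without PDS control replicate 2 or Phen-DC3 control replicate 1 or 2.

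These control differences also ran with gene length. Over all genes the Spearman correlation of the log2 fold change with length was 0.496 against PDS controls and 0.474 against Phen-DC3 controls. In the first of these the median was -0.68 for gene models up to 1500 bases, -0.18 for longer ones up to 3000, 0.45 for those up to 4500 and 1.20 above. Acta2, Tagln, Cnn1, Myl9 and Tpm2 belong to the shortest class, and each was lower than its median. After the length correction 9 of the 10 genes were still called in the same direction against PDS controls. Over all tested genes 31.9% were then called higher and 35.2% lower. Lower were Tpm2 at -1.46 ± 0.19, Cnn1 at -1.26 ± 0.11, Tagln at -1.03 ± 0.10, Myl9 at -0.95 ± 0.17, Acta2 at -0.79 ± 0.12 and Tpm1 at -0.63 ± 0.07. Diaph3 stood at 1.40 ± 0.11, Actn1 at 1.01 ± 0.07 and Diaph1 at 0.34 ± 0.07, a much smaller value than before. Cald1 turned to -0.06 ± 0.09 and was not called, and against Phen-DC3 controls it turned to -0.37 ± 0.09 and was called lower (edgeR adjusted p = 0.00076).

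**Figure D3:**
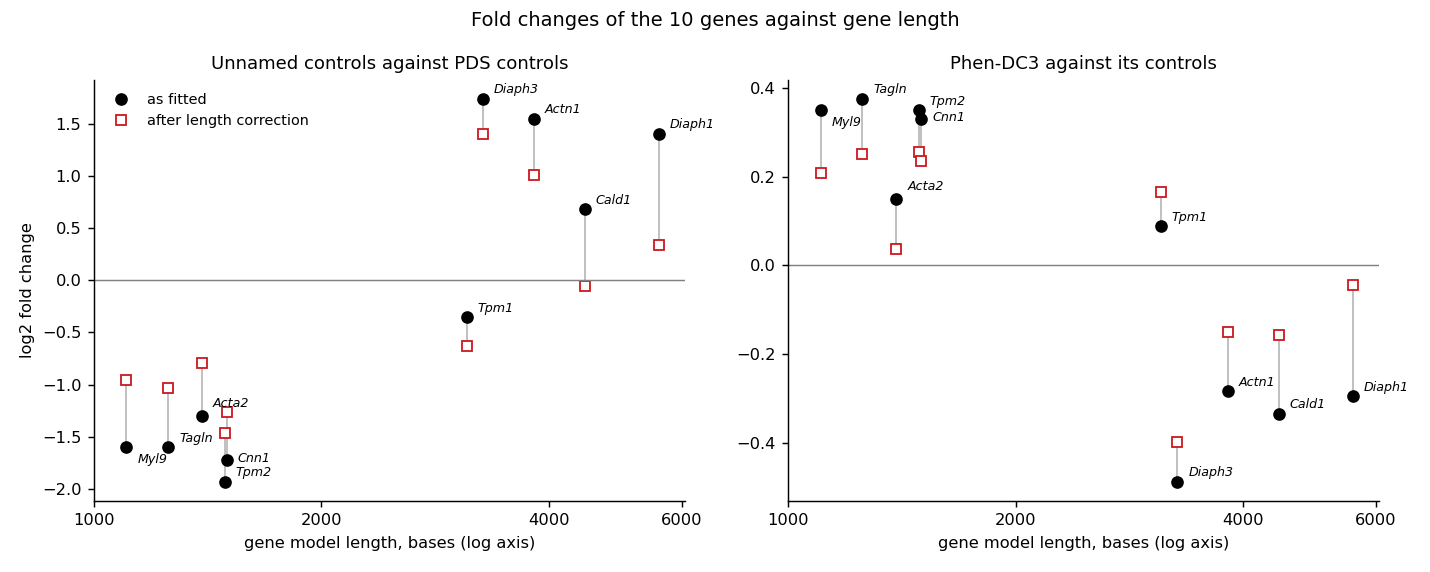
Log2 fold change of the 10 genes (vertical axis) against gene model length in bases (log axis), as fitted (black circles) and after removal of each library's length trend (red squares), for unnamed against PDS controls on the left and Phen-DC3 against its controls on the right; the vertical scales differ. On the left 9 genes keep their sign and Cald1 does not; on the right all values move towards 0 except Tpm1.

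Markers of other cells moved with the control groups. The summed level of 6 pericyte markers was 110 to 143 CPM in PDS controls, 136 to 156 in Phen-DC3 controls and 368 to 398 in unnamed controls, most of it Pdgfrb, with Rgs5 at or near 0. Against PDS controls Pdgfrb (1.555), Abcc9 (2.54) and Cspg4 (2.04) were called higher in unnamed controls. Kcnj8 read lower there at -0.59 and was not called (edgeR adjusted p = 0.098). The summed level of 6 fibroblast markers found in the table was 2758 to 3130 CPM, 3116 to 3188 CPM and 5742 to 6898 CPM in the same order of groups. Its members did not move alike: against PDS controls Col1a1 was higher in unnamed controls by 1.84 on the log2 scale and Thy1 was lower at -0.74 (edgeR adjusted p = 3.9e-08), while Dcn (-0.05) and Lum (0.11) were not called. The 6 mature smooth muscle markers summed to 245 to 273, 232 to 252 and 320 to 399 CPM, and most of that sum was Smtn, which was higher by 0.50 against PDS controls. Myh11 (0.51, edgeR adjusted p = 0.0088) and Myocd (2.94, edgeR adjusted p = 1e-10) were also higher. Actg2 was lower, at a mean of 1.70 CPM against 5.59 in PDS controls (log2 fold change -1.72, edgeR adjusted p = 1.1e-05). Lmod1 (-0.19) and Des (0.02) were not called. After the length correction Smtn (0.15) and Des (0.15) were not called, while Myh11 (-0.87), Lmod1 (-0.94) and Actg2 (-1.22) were called lower. Myocd was still called higher, at 2.01. Pericyte and fibroblast markers were not read after the length correction. The part of these markers in the differences of the 10 genes was not tested. In bulk libraries, fewer cells of a type and less RNA per cell cannot be told apart.

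Within groups the short contractile genes deviated together. Unnamed control replicate 1 had the lowest value of its group in Acta2, Tagln, Cnn1, Myl9 and Tpm2, with a median deviation of -0.38 log2 units from the group mean, and Myl9 at 37.8 CPM against 68.8 and 71.3. Phen-DC3 control replicate 1 had a median deviation of -0.23 over these 5 genes and replicate 3 one of 0.19. Among the 5 genes, correlations of the deviations over the 18 libraries were 0.601 to 0.949, the highest for Tagln with Myl9, and those of the 5 with Diaph1 or Diaph3 were -0.519 to -0.026. The longer Tpm1 also followed the 5, at 0.684 to 0.786, and Actn1 had correlations of 0.145 to 0.706 with them, so this was not limited to the short genes. They are descriptions over libraries that share their normalisation, and 3 deviations of a group sum to 0.

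**Figure D4:**
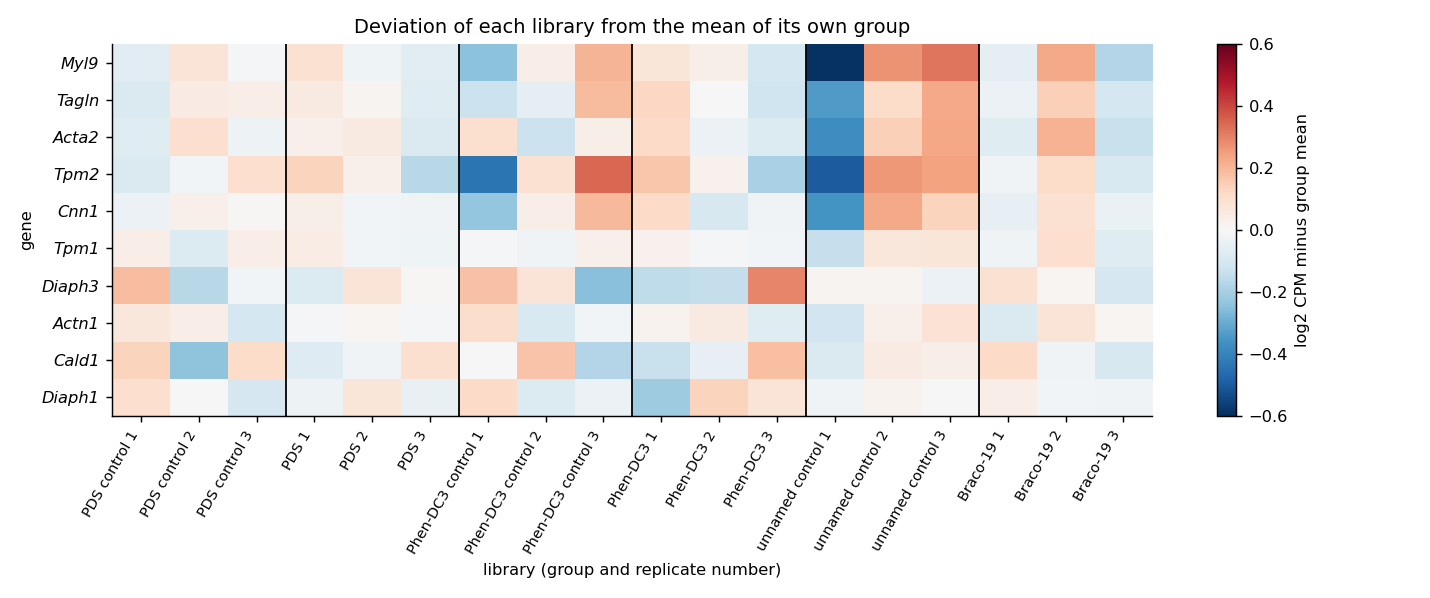
Deviation of each library from the mean of its own group in log2 CPM (colour, red above and blue below) for the 10 genes, from the shortest at the top to the longest, with vertical lines between groups. Unnamed control 1 and Phen-DC3 control 1 are blue in most of the 5 short genes at the top; in unnamed control 1 Actn1 and Tpm1 are also the lowest of their group.

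Relative to the mean of its own control group, Acta2 was most closely followed over the 18 libraries by Cnn2, a calponin (Pearson r = 0.866), then by Gfer, Pdlim1, Polr2g and Cdc42ep5 (0.782 to 0.736). Diaph3 was followed by Ppfibp1, Nfatc3, Virma, Cip2a and Aspm (0.978 to 0.966). Both were sought among 8916 genes whose log2 CPM averaged 3 or more.

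The wider actin machinery was read through 3 lists of genes. With PDS, 1 of 22 tested genes of the contractile list was higher and 1 lower, near the shares over all tested genes (5.13% higher and 2.96% lower): Synpo2, an actin-bundling protein, at 0.60 ± 0.12, and Mylk, myosin light chain kinase, at -0.78 ± 0.13 (edgeR adjusted p = 0.00047). In the list of formins, Arp2/3 and filament turnover 5 of 23 were higher and none lower, to be read against the same shares. They were the Arp2/3 subunits Arpc2 (0.30 ± 0.06), Arpc5 (0.25 ± 0.06) and Actr2 (0.24 ± 0.06), the severing factor Cfl2 (0.40 ± 0.10) and the formin Fhod1 (0.36 ± 0.09), the last named after its value was seen. The list's median was 0.09 against 0.02 over all genes.

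Of 20 focal adhesion and cross-linker genes 3 were higher with PDS and 1 lower, against 5.13% and 2.96% of all tested genes. Higher were the integrin subunits Itga5 (0.53 ± 0.07) and Itgb1 (0.40 ± 0.07) and the PDZ-LIM protein Pdlim7 (0.42 ± 0.09). Flnc, filamin C, was lower (-0.40 ± 0.10). All of the named genes were also called after the length correction, when 4.81% of all tested genes were called higher and 3.81% lower.

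With Phen-DC3, where 2.19% of all tested genes were called higher and 5.82% lower, the contractile list of 22 had 1 gene lower, the non-muscle myosin Myh10 (-0.31 ± 0.08). Filament turnover, of 23 genes, had Cfl1 (0.29 ± 0.08) and Arpc3 (0.28 ± 0.08) higher and the formin Daam1 lower (-0.46 ± 0.13). Lower among the 20 focal adhesion genes were Vcl (-0.49 ± 0.10), Tln1 (-0.38 ± 0.10) and Pdlim5 (-0.32 ± 0.08), which sit at focal adhesions and stress fibres. None of the 3 lists had a call with Phen-DC3 after the length correction. With Braco-19 no gene of the 3 lists was called.

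In the unnamed controls against PDS controls the contractile list had 6 higher and 12 lower of 22 and the filament turnover list 9 higher and 13 lower of 23. The focal adhesion list had 14 higher and 3 lower of 20. Over all tested genes 37.7% were higher and 35.6% lower. After the length correction the contractile list had 5 higher and 12 lower, filament turnover 9 and 12, and focal adhesion 9 and 5. The median of the focal adhesion list went from 0.52 to 0.13. Of all tested genes 31.9% were then higher and 35.2% lower. Tagln2, a relative of Tagln, was at -1.79 ± 0.09, and Tmsb4x, which sequesters free actin, at -1.41 ± 0.08, and after the length correction they stood at -1.25 and -0.58, both called.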

How the data were processed

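RNA-seq counts of 18 libraries were analysed. Raw counts per gene were deposited by the authors without normalisation. Per the submitters' processing notes, CASAVA, HISAT2 and featureCounts 1.5.0-p3 were used; for genome build, annotation and strand setting: not given in the sources used here. Gene model lengths and positions are as deposited.

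Genes were kept by filterByExpr of edgeR 4.0.16 (14184; R 4.3.3, limma 3.58.1), TMM factors were computed, and 1 robust quasi-likelihood model with 1 mean per group was fitted to all 18 libraries (12 residual degrees of freedom). P-values were adjusted by Benjamini-Hochberg within each of the comparisons, threshold 0.05. Library totals of 15715121 to 18369443 counts leave 163 or more counts per library for the lowest member, Cnn1, and counting error is only a lower limit of the error.

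Alternatives were RLE and upper-quartile scaling, no count filter, DESeq2 1.42.0, the compared libraries alone, a replicate block, a length correction (a lowess smooth of log2 CPM on gene length per library, span 0.3) and leaving out each library. The calling was tested on simulated counts. The members and lists were chosen with earlier results of these data known. From each list up to 4 called genes per compound with the smallest p were named, and up to 2 per control comparison; the text names part of them, and 1 further list is not reported here. Likeness used Pearson r of log2 CPM relative to own controls. Promoters are RefSeq sequences, and figures were drawn with matplotlib.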

Additional observations from a re-analysis of the deposited data

Results flagged for a closer look

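The effects of 2 compounds differed, by a test of the difference itself (edgeR's quasi-likelihood test of the interaction, adjusted over all tested genes), in 5 cases. For PDS minus Phen-DC3 these were Actn1 (0.55 on the log2 scale), Diaph1 (0.65), Diaph3 (1.01) and Tpm1 (-0.27). For PDS minus Braco-19 it was Diaph3 (0.62). For Actn1, Diaph1 and Diaph3 the PDS value was above 0 and the Phen-DC3 value below 0, and both were called. Each of these 3 Phen-DC3 calls was lost in 7 of 13 alternative analyses, the length correction among them. The PDS call was lost in 9 of 13 for Actn1, in 3 for Diaph1 and in 2 for Diaph3. For Tpm1 neither compound's own effect was called, and the difference itself lost its call in 10 of 19 alternative analyses, with adjusted p-values from edgeR or DESeq2 of up to 0.1.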

How the results depend on the processing

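Over 1320 values of a gene under an alternative, 1229 kept their direction and their side of the threshold, or were not called either way, 53 lost a call, 36 gained one and 2 reversed. Both reversals were Cald1 under the length correction, at -0.056 against PDS controls and -0.37 against Phen-DC3 controls. For PDS the 4 calls became 7 with the compared libraries alone and 1 with a replicate block, and 2 to 3 when a library was left out. Over all genes the 1148 PDS calls became 2053, 587 and 563 to 867 in these cases. For Phen-DC3 the 3 calls became 5 with RLE, 5 with upper-quartile scaling, 6 with DESeq2, 0 with the compared libraries alone, 0 with a replicate block, 0 with the length correction, and 0 to 6 when a library was left out. Over all genes the 1136 Phen-DC3 calls became 1158, 1167, 2106, 1, 1, 47 and 0 to 3315 in the same order. Between Phen-DC3 and PDS controls the 1 call became 3 with DESeq2, 0 with the compared libraries alone and 0 to 3 with a library left out. The 864 calls over all genes became 1599, 3 and 0 to 2740. PDS minus Phen-DC3 kept 3 to 7 calls with a library left out, against 4, and over all genes 1447 to 4218, against 2862. PDS minus Braco-19 went from 1 call to 2 with DESeq2, with the compared libraries alone and with the length correction, to 0 with a replicate block and to 0 to 2 with a library left out. Over all genes its 1990 calls became 2648, 3239, 2006, 661 and 896 to 2353 in the same order. Except where the alternative itself uses fewer libraries, the cause was not tested. Replicate numbers showed no pairing: the deviations of same-numbered treated and control libraries had correlations of -0.251 to 0.0717 over 9 pairs. Upper-quartile scaling moved the all-gene PDS split from 728 higher and 420 lower to 575 and 527, and moved the median of all genes by -0.11 in both comparisons of the unnamed controls.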
